A study of Drosophila melanogaster with 2 samples.

Results

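The replacement histone genes of Drosophila melanogaster are single-copy genes that lie outside the tandemly repeated histone cluster, and 4 of them are described here, His2Av, His3.3A, His3.3B and His4r, of 13945 protein-coding genes on the 6 arms of the assembled genome. They were chosen by symbol and by their CG1792 summits, which are measured values of these same lists, so their binding and its contrast with the other genes whose symbol begins with His are given as a description, with no test. The data are from chromatin immunoprecipitation with sequencing (ChIP-seq), which recovers the DNA that a protein occupies. Chromatin came from whole embryos of mixed sex, aged 0 to 24 hours, of a transgenic line that stably carries CG1792, a C2H2 zinc finger protein, with GFP fused to its C-terminus. There was 1 group of 2 libraries, biological replicates 2 and 3, both from the tagged line. The labels say that GFP was precipitated while their antibody field names CG1792, they do not say what drives the fusion gene, and no control library was analysed here.

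Most histones of a fly embryo come from the cluster genes, which lack introns, are transcribed in S phase and give mRNAs that end in a stem-loop instead of a poly(A) tail. Replacement histone genes differ in that they are transcribed outside S phase as well, carry introns and give polyadenylated mRNAs, and their products enter chromatin without DNA replication. H2Av, the product of His2Av, is the only H2A variant of the fly and combines the roles that other animals divide between H2A.Z and H2A.X. His3.3A and His3.3B encode the same protein, H3.3, which marks actively transcribed chromatin, and His4r encodes an H4 protein identical to that of the cluster.

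CG1792 occupied the start regions of His2Av, His3.3B and His4r in the thresholded list of 2892 peaks, with that of His2Av the strongest of the 3. His3.3A had weak regions only, below the threshold. With a summit within 500 bp of a start as the measure, 3 of 4 members were bound, beside 14.2% of all protein-coding genes. Nothing is read from that difference, because it is what brought the genes together. The signal is the authors' own measure of how strong a region is, on a scale that is not stated and that differs between lists, so each level is compared within its own list or by rank, 1 being the strongest.

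Sequences of the shared start regions and around the summits of His2Av and His3.3B are shown first. They are given in the direction in which the histone gene is transcribed, in dm6 and 5′ to 3′. Exon bases are left out of all of them. Capitals mark CGATA on either strand (TATCG when read in reverse), the short element that the insulator protein BEAF-32 recognises. The lines for the shared start regions hold all bases between the divergent starts, and the other lines hold the 101 bases centred on the pooled summit. Of the shared start regions, only that of put and His4r holds a pooled summit. The lines with capitals hold no summit of any list. The space between ball and His2Av is at chr3R:26866808-26866928, plus strand, and the summit of His2Av at chr3R:26866663-26866763, plus strand. The space between put and His4r is at chr3R:14625704-14625754, plus strand, the summit of His3.3B at chrX:9155231-9155331, minus strand, and the space between CG14036 and His3.3A at chr2L:5055017-5055057, plus strand.
ball to His2Av: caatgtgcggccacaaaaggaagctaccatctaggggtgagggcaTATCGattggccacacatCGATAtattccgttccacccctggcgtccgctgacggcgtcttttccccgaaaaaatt
His2Av summit: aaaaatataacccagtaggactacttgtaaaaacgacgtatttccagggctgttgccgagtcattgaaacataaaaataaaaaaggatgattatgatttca
put to His4r: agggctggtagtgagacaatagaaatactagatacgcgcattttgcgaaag
His3.3B summit: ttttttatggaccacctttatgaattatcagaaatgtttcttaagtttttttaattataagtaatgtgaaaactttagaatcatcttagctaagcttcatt
CG14036 to His3.3A: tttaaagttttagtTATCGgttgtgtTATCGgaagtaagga

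His2Av (FBgn0001197), which spans 26866929 to 26869220 on the plus strand of 3R and has 1 annotated start, carried the strongest peak of the members. The region lay at 26866505 to 26866920 with its summit at 26866713, 216 bp upstream of the start. The pooled list gave it a signal of 151 (rank 674), replicate 2 one of 51.7 (rank 1251) and replicate 3 one of 97.5 (rank 474). The peak was thus one of the top 2892 regions in each replicate, and the summits of replicate 2 and replicate 3 lay 19 and 9 bp from the pooled one. Among the 1981 bound protein-coding genes, whose strongest start peaks had signals from 67.0 to 1480 with a median of 105, His2Av took place 505. A weak region in the His2Av intron, 630 bp downstream of the start, had a pooled signal of 24.2 (rank 17975) and one at 602 bp was listed in replicate 3 (signal 20.4, rank 8130). Replicate 2 listed none there within 1500 bp of the start.

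The His2Av summit is shared with the divergent gene ball (FBgn0027889), which spans 26864605 to 26866807 on the minus strand. ball encodes Ballchen, a nucleosomal histone kinase that phosphorylates H2A in Drosophila. The outermost starts of these genes are 122 bp apart, but the summit did not fall between them. It lay in an intron of ball, 88 bp upstream of a second, internal ball start at 26866625. The summits of both replicates lay in the same intron, whose 101 bases around the pooled summit, shown above, have a GC content of 32.7% against 52.9% in the 121 bases between the starts. A peak at this place cannot be given to one gene of the pair, and with each summit assigned to its nearest start it belonged to ball.

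His3.3B (FBgn0004828), on the minus strand of X at 9152523 to 9156669, has 3 annotated starts, at 9156669, 9155613 and 9155012, and its thresholded peak lay inside the gene. The region spanned 9155073 to 9155488, with the summit at 9155281 in an intron, 269 bp upstream of the innermost start and 1388 bp downstream of the outermost. The signal was 78.3 in the pooled list (rank 2215), 32.1 in replicate 2 (rank 3056) and 48.7 in replicate 3 (rank 1790). Replicate 3 had its summit at the same base as the pooled list. The nearest summit of replicate 2 lay 128 bp away at 9155409, in a 5′ UTR exon 204 bp downstream of the middle start, and it ranked just outside the 2892 strongest regions of that replicate. A second pooled region overlapped the first, with its summit 122 bp downstream of the middle start (signal 45.3, rank 5591), and a region at the outermost start was weak (pooled signal 20.3, rank 24754, 219 bp downstream). The strongest regions therefore lay by the inner starts in each list. The 101 bases around the summit have a GC content of 23.8%.

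His4r (FBgn0013981), at 14625755 to 14626614 on the plus strand of 3R, had the weakest thresholded peak of the members. Its region at 14625519 to 14625934 had its summit at 14625727, 28 bp upstream of the outermost of its 2 starts, in the 51 bases that separate it from put. put encodes Punt, the type II receptor of Dpp and activin signalling. The signal was 70.1 in the pooled list (rank 2657), close to the lowest thresholded signal of 66.97. In replicate 3 the summit lay 47 bp from the pooled one (signal 41.5, rank 2424). In replicate 2 the nearest summit, 49 bp away, had a signal of 16.6 and rank 13704, and a stronger one, 379 bp upstream of His4r in the 5′ UTR of put, had a signal of 22.3 and rank 6906. The His4r peak was among the strongest regions of replicate 3 but not of replicate 2. The put start was 24 bp from the pooled summit, nearer than the His4r start.

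His3.3A (FBgn0014857), at 5055058 to 5056149 on the plus strand of 2L, had no thresholded peak, although it too shares its start region with a divergent gene, CG14036, at a distance of 42 bp. Its strongest pooled region had a signal of 39.8 (rank 6968), with the summit in an intron 489 bp downstream of the nearer of its 2 starts, just inside the window. Replicate 2 placed a summit 79 bp away (signal 27.6, rank 4183) and replicate 3 one 21 bp away (signal 14.7, rank 14519), which fell 510 bp from the nearer start, just outside the window. Closer to the starts, the pooled list had a region of signal 21.7 (rank 22062), 91 bp downstream, and replicate 3 one of signal 17.3 (rank 10872) between the starts, while replicate 2 listed none there. The H3.3 genes thus differed in these lists, with His3.3B above and His3.3A below the threshold. The difference between them was not tested, since the members were chosen on these values.

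**Figure D1:**
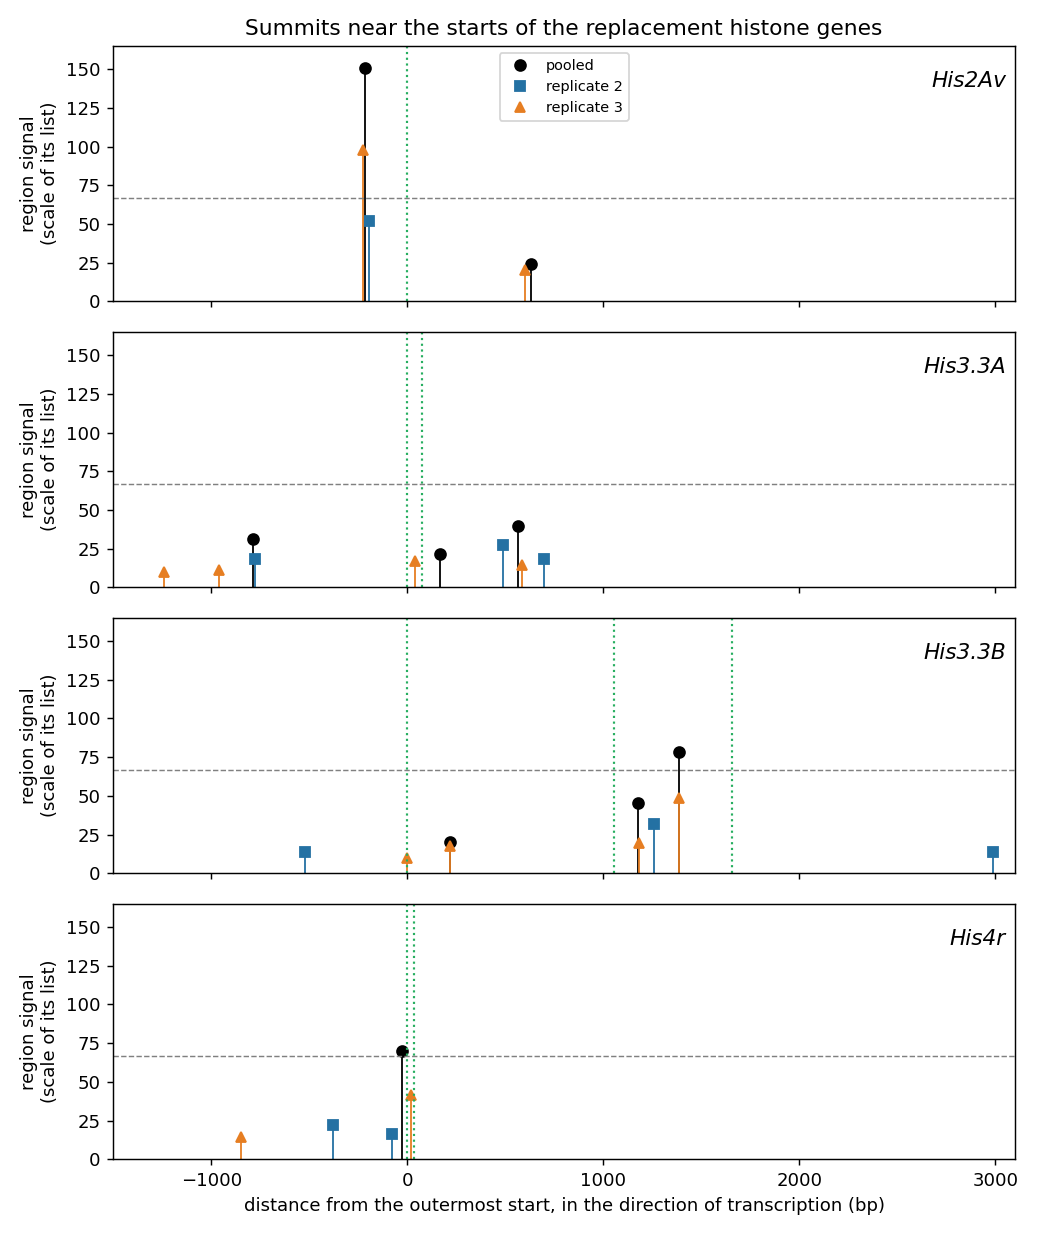
Signal of each region with a summit within 1500 bp of a start of the named gene, by its distance from the outermost start in bp, in the pooled list (circles), replicate 2 (squares) and replicate 3 (triangles). Dotted lines are annotated starts, and the dashed line is the lowest signal of a thresholded peak, 66.97, which applies to the circles only. Signals of different lists are on different scales. His2Av has 1 dominant site at 216 bp upstream, His3.3B is marked at its inner starts, and His3.3A stays under the line.

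Support for the members differed between the replicates. Among the 2892 strongest regions of replicate 2, 1 of 4 members, His2Av, had a summit at a start, beside 14.3% of protein-coding genes. In replicate 3 the count was 3 of 4, beside 13.7%. A thresholded summit together with one in the top 2892 of each replicate was found at His2Av alone, beside 10.5% of protein-coding genes. A pooled region of any rank was found at all 4 members and at 53.2% of protein-coding genes, so the presence of a weak region, as at His3.3A, is common. Replicate summits within 100 bp of the strongest pooled summit were found in both replicates for His2Av, His3.3A and His4r. These summits were of any rank, as low as 13704 for His4r in replicate 2 and 14519 for His3.3A in replicate 3. The same share over all bound genes was not counted, so nothing is read from it.

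By rank, the order of the members in the pooled list was His2Av, His3.3B, His4r, His3.3A, and replicate 3 gave the same order. In replicate 2 His2Av and His3.3B led in that order, and His3.3A (rank 4183) stood above His4r (rank 6906). The order of His4r and His3.3A thus differed between the replicates. Over the pooled list and both replicate lists, the bound genes whose ranks were most like those of His2Av and His4r, among 1976 genes with a summit in all 3 lists, were ball and put, which share the same summits. For His3.3B it was dod on X, which encodes a peptidyl-prolyl isomerase (ranks 2154, 2967 and 1870 in the pooled list, replicate 2 and replicate 3; summed absolute difference in log10 rank 0.044).

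**Figure D2:**
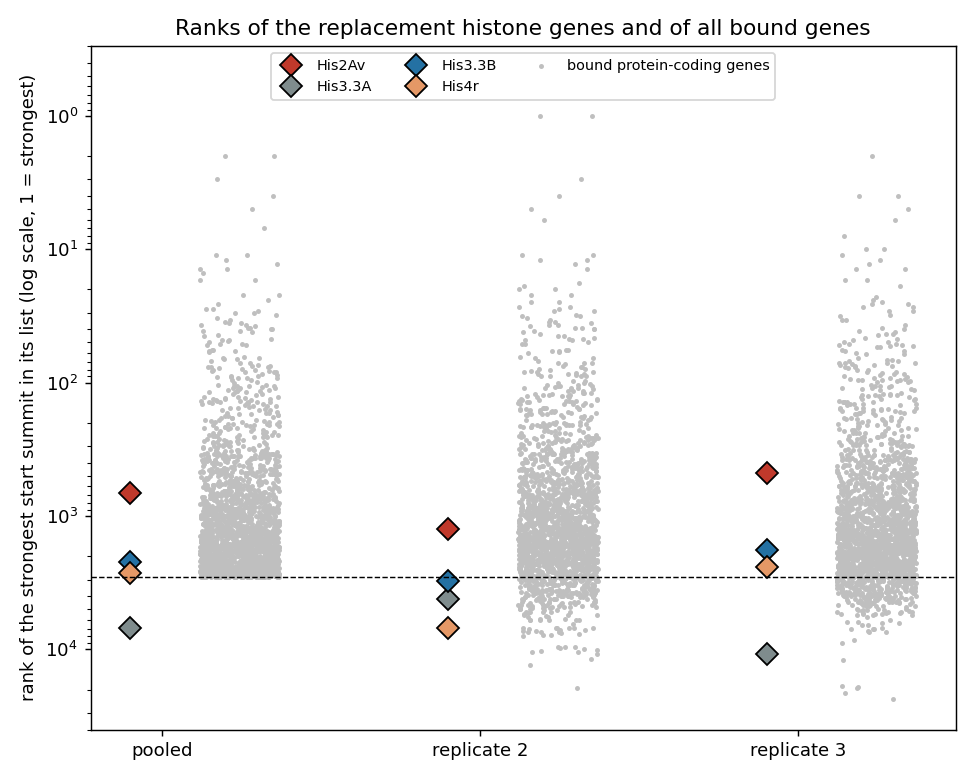
Rank of the strongest region with a summit at a start, on an inverted log scale, in the pooled list and each replicate. Diamonds are the 4 replacement histone genes, grey dots the 1981 bound protein-coding genes, which were called in the pooled list, and the dashed line is rank 2892. His2Av lies above the line in all 3 lists and His3.3A below it in all 3; His3.3B and His4r fall below it in replicate 2.

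Neighbours did not enter the choice of the members directly, but summits did, and those of His2Av and His4r are shared with ball and put. The count of members with a divergent partner is therefore not independent of that choice. Of the 4 genes, 3 have a divergent protein-coding gene whose outermost start is 42 to 122 bp away, His3.3A, His4r and His2Av, and His3.3B has none within 1000 bp. A divergent partner within 200 bp is found at 1344 of 13945 protein-coding genes (9.64%). Of these 1344, 321 (23.9%) were bound, beside 14.2% of all genes. In such pairs 1 summit can mark both genes, and the difference was not tested. His3.3A is among the unbound majority of this class.

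In the 250 bases upstream of each annotated start, 8 sequence elements were searched on both strands. CGATA was the one with a match upstream of some start of every member. The share of all genes with a match upstream of any of their starts was not counted. By start, CGATA occurred upstream of 6 of the 8 starts of the members, against 41.0% of the 19607 start windows of all protein-coding genes. His4r holds it 3 times at 63 to 83 bp upstream of its outermost start, within the 5′ UTR of put, and His3.3A in reverse at 15 and 27 bp upstream of its own. In His2Av, matches start 58, 76 and 154 bp upstream of the start, the first and second within the printed stretch. In His3.3B a single match starts 23 bp upstream of the innermost start. Starts of one gene overlap in their windows and are not independent.

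The longer DNA replication-related element TATCGATA, which contains CGATA and is bound by Dref, was upstream of 0 of the 8 starts (6.91% of all start windows), as were the core of the M1BP site GGTCACAC (3.83%), the GAGA factor site GAGAG (29.1%), the E-box CACGTG (2.80%) and the octamer ATTTGCAT (3.13%), which in vertebrates marks H2B gene promoters. TATAAA was upstream of 2 starts, both of His3.3B (39.5% of all start windows), with matches that start 208 and 137 bp upstream. The initiator letters TCAGT were upstream of 3 starts, of His3.3B and His4r (38.9%). These TCAGT matches were all in reverse, at 140 bp upstream in His3.3B and at 58 and 91 bp upstream of the His4r starts. The upstream window does not reach across the start, so an initiator at the start itself was outside it. In the 101 bases around the strongest pooled summit, CGATA was present in His4r (18.8% of all thresholded summits), TCAGT in His4r (19.2%) and GAGAG in His3.3A (12%). The His3.3A summit is below the threshold, so it is not itself one of the thresholded summits. The summit windows of His2Av and His3.3B, printed above, held none of the 8 elements. A match is a description of the letters, and no match says only that these letters are not in this window.

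The other genes whose symbol begins with His number 122. Of these, 111 are protein-coding genes of the cluster, 8 are cluster pseudogenes and 3 are unrelated to histones. The cluster copies lie on 2L between 21404181 and 21543688, over 139508 bp. They include 23 genes for H1, 20 for H2A, 23 for H2B, 23 for H3 and 22 for H4. A summit at a start was found at 0 of the 119 cluster genes and pseudogenes in the thresholded list, and equally at 0 in the pooled list and in each replicate. No list had a summit anywhere within the span, although 31.3 pooled summits would lie there at the average density of the 6 arms. The nearest pooled summits were weak and lay 7219 bp before it (signal 20.6, rank 24156) and 16020 bp after it (signal 21.0, rank 23358).

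The sequence at the cluster starts is nearly all repeated. Within 500 bp of the outermost start, the share of 32-base words that occur once in the genome was 99 to 100% at the 4 replacement histone genes, against a median of 0% and at most 19.5% at the 111 cluster genes. Over the cluster span it was 3.76%. Reads from identical copies cannot be placed on one of them, and how such reads were treated is not stated in the labels or files. Other genes with repeated starts were also nearly empty of regions. Of the 136 further protein-coding genes with under 10% unique words, 1 (0.735%) had a pooled region at a start, against 55.0% of the 12958 genes with 99% or more. The part of repeated sequence in the contrast between replacement and cluster genes was not tested, and the absence of a region says nothing on whether CG1792 occupies the cluster.

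**Figure D3:**
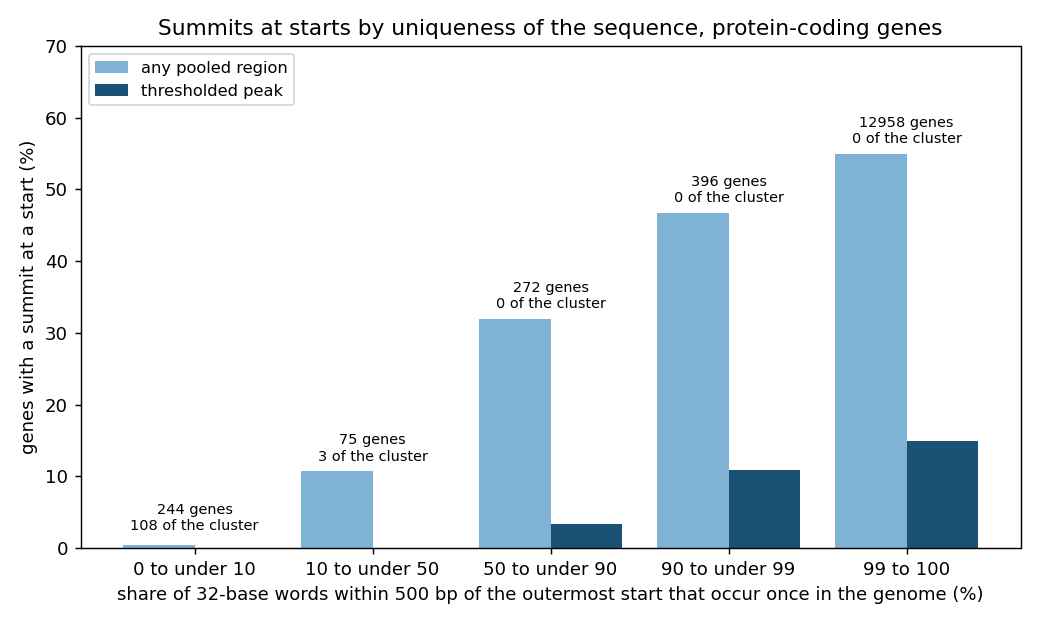
Share of protein-coding genes with a summit within 500 bp of a start, by the share of 32-base words around the outermost start that occur once in the genome. Light bars are pooled regions of any rank and dark bars thresholded peaks; numbers give the genes in each bin and how many belong to the histone cluster. All 111 cluster genes fall in the lowest 2 bins, where thresholded peaks are at 0. Of the 4 replacement histone genes, His2Av, His3.3B and His4r fall in the highest bin. His3.3A, whose share rounds to 99%, falls just under its edge, in the bin from 90 to under 99%.

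The 3 genes with unique starts that share only the letters His with the members were HisCl1, which encodes a histamine-gated chloride channel, HisRS, which encodes histidyl-tRNA synthetase, and HisT. None had a thresholded summit at a start, and all had pooled regions there. HisCl1 came nearest to the threshold, with a pooled signal of 60.5 (rank 3462) and ranks of 5320 in replicate 2 and 2449 in replicate 3. HisRS had a pooled signal of 47.4 (rank 5167) and HisT one of 45.5 (rank 5540). In the pooled list these levels lie between those of His4r and His3.3A. In replicate 2 all 3 were below His3.3A (signal 27.6), HisRS at 25.2, HisCl1 at 25.0 and HisT at 14.6.

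The other histone variants of the fly were not bound. cid encodes the centromeric H3 variant, and its strongest pooled region at a start had a signal of 23.8 (rank 18645), with the summit 237 bp downstream in the coding exon. BigH1, the gene of the early embryonic linker histone, had no pooled region at its start, and replicate 2 alone listed one (signal 14.6, rank 18439).

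Genes that supply, deposit and exchange histones had a thresholded summit at a start in 7 of 42 cases (16.7%) over the 5 lists, a share near the 14.2% of all protein-coding genes. H3.3 is deposited by Hira with its partner Yemanuclein. yem, the gene of that partner, was bound with a signal of 152 (rank 664; ranks 405 and 1008 in replicates 2 and 3), close to the level of His2Av, whereas Hira itself had 50.3 (rank 4699) and asf1, the gene of a general H3-H4 chaperone, ranked 4745, both below the threshold. In all, 1 of 9 genes for H3-H4 chaperones was bound. Spt6 (64.9, rank 3073) and Caf1-180 (64.4, rank 3122), a subunit gene of the replication-coupled assembly factor, stood just outside.

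Among genes for chaperones of H2A and H2B, 1 of 6 was bound, dre4, which encodes the Spt16 subunit of FACT (signal 123, rank 975; ranks 1236 and 908 in replicates 2 and 3). Ssrp, the gene of the other FACT subunit, had a pooled signal of 24.7 (rank 17263). Of 16 genes of the Domino/Tip60 complex, which exchanges H2Av, 3 were bound. These were MrgBP (88.0, rank 1797) and the genes of the paired ATPases, rept (83.5, rank 1977) and pont (80.3, rank 2127), and rept ranked 4516 in replicate 2. The catalytic subunit genes dom (63.9, rank 3168) and Tip60 (61.2, rank 3407) were just below the threshold, as was Bap55 (64.5, rank 3108). E(Pc), MRG15 and Gas41 had pooled ranks from 5663 to 7692, and YL-1, Ing3, Eaf6, Brd8 and DMAP1 from 15937 to 28307. Arp6 and Nipped-A had no region at a start in any list.

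Of 9 genes of the histone locus body and histone mRNA processing, 2 were bound. mxc, which encodes the scaffold of the histone locus body, had a signal of 92.5 (rank 1647), with ranks of 1121 in replicate 2 and 2667 in replicate 3. Clamp, which encodes a GA-repeat binding protein that acts at the cluster promoters, had a signal of 79.9 (rank 2144), with the summit 489 bp downstream of a start and ranks of 3756 and 18706 in replicates 2 and 3. Slbp, the gene of the stem-loop binding protein, had 54.2 (rank 4165). The rest of this list was weaker, with wge at rank 11061, mute at 15743 and Lsm10 at 29273. FLASH, Lsm11 and abo had no pooled region at a start. The summits of yem, rept, pont, MrgBP and mxc also lie within 500 bp of a start of a neighbouring gene, Ctl2, mRpL21, Sirt6, Ggamma1 and Larp7 in that order.

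**Figure D4:**
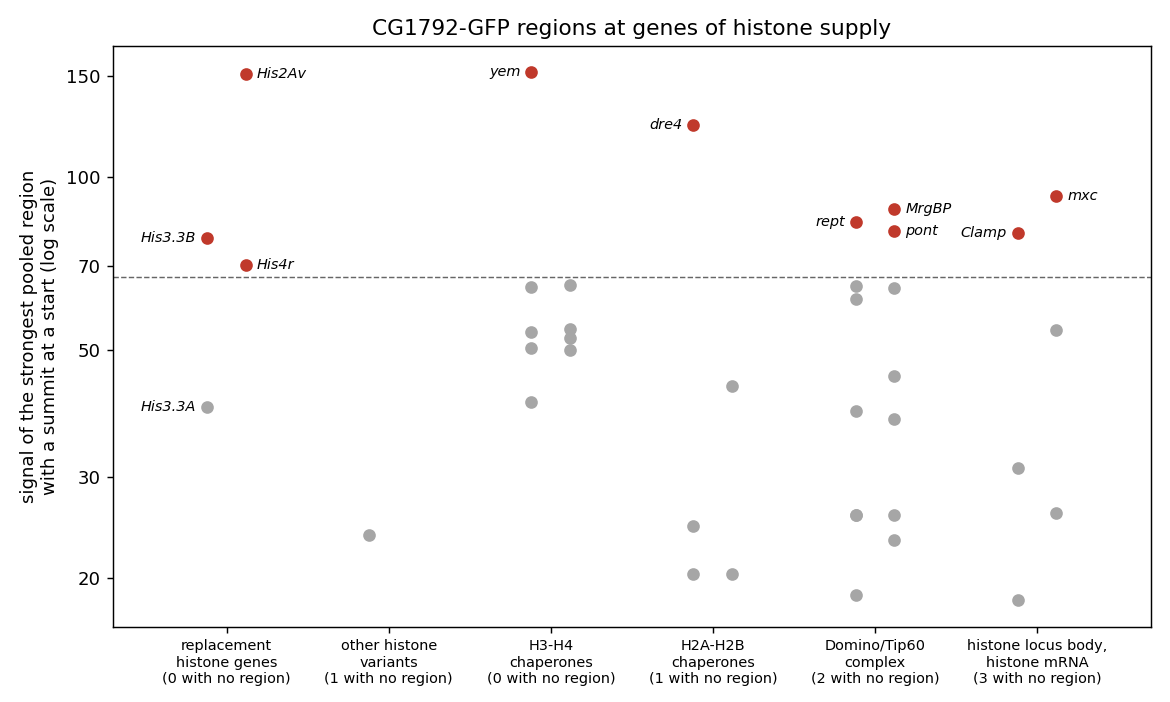
Signal of the strongest pooled region with a summit at a start, on a log scale, for the replacement histone genes and the genes of 5 lists of histone supply. Red points are thresholded peaks, grey points other regions, and the dashed line is the lowest thresholded signal, 66.97; genes with no region are counted under each name. His2Av (151) and yem (152) stand highest. Several members of the complexes lie just under the line, while others lie far below it or have no region.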

How the data were processed

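Regions of CG1792-GFP ChIP-seq in dm6 were used as the authors deposited them, 30000 in the pooled replicates and in each replicate, and 2892 thresholded by the irreproducible discovery rate. The thresholded peaks were the 2892 strongest regions of the pooled list, so a thresholded peak need not be strong in each replicate. Per the labels' library listing, regions were called against a control alignment; aligner, caller, versions and treatment of repeated reads are not stated. Regions were ranked by their deposited signal, and the deposited −log10 q-value was not used. The lists hold no read counts, so depth is unknown and no interval is given. The dm3 lists were not used.

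Summits (region start plus deposited offset, 1-based) were matched to transcript starts of Ensembl release 115 (BDGP release 6, whose coordinates are those of dm6) within 500 bp. Sequence came from the RefSeq genome of the same assembly. Uniqueness was counted over 32-base words on both strands. Assignment and uniqueness were checked on simulated data. No test was run. The members, gene lists and elements were chosen with earlier results of these data known. Of the symbols listed, Dlp, NASP and CG8223 matched no protein-coding gene, and the generic His1, His2A, His2B, His3 and His4 are covered by the cluster copies. Named genes were the members, other His genes with pooled regions, genes sharing a member's summit, bound list genes and the gene closest in rank to each bound member; unbound list genes and neighbours were named after their values were seen. Alternatives were windows of 250 and 1000 bp, the stronger 1446 peaks, the nearest start or the outermost start only, and each replicate alone. Python 3.11.15, numpy 2.4.6 and matplotlib 3.10.9 were used.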

Additional observations from a re-analysis of the deposited data

How the results depend on the processing

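The count of bound members, 3 of 4 beside 14.2% of protein-coding genes, fell to 1 among the stronger 1446 peaks (His2Av), where 1060 protein-coding genes (7.6%) were bound instead of 1981, and to 1 with each summit given to its nearest start (His3.3B, beside 10.3%). It ran from 1 to 3 with a replicate left out. It was 1 without replicate 3 (His2Av, beside 14.3%) and 3 without replicate 2 (beside 13.7%). It was 2 (His2Av and His4r) with 250 bp (beside 11.5%) or the outermost start only (beside 12.7%), and 3 with 1000 bp (beside 16.5%). Cluster histone genes were at 0 in each of these settings. Without replicate 3 the strongest summit of His3.3B lay at 204 bp, downstream of the middle start, instead of −269 bp, and that of His4r at −379 bp. That of His3.3A lay at 489 bp in the pooled list, at −35 bp without replicate 2 and at 410 bp without replicate 3. Members with a summit of any rank in both replicates numbered 2 within 50 bp and 4 within 200 bp of the pooled one. The share over all bound genes was not counted. The causes of these changes were not tested. Without read counts, the precision of each signal is unknown. No paired analysis was possible because there is 1 group.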
